A study of Bos taurus with 12 samples.

Results

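The miR-23/27/24 clusters are a pair of short runs of miRNA genes, each of which carries a miR-23, a miR-27 and a miR-24 hairpin one after the other. Their mature products were followed across granulosa cells of bovine subordinate follicles (SF) and dominant follicles (DF) in the early luteal phase. The members were chosen by name, as bta-miR-23a, bta-miR-23b-3p, bta-miR-27a-3p, bta-miR-27b, bta-miR-24-3p and bta-miR-24, and all 6 were found among the 755 mature names of the count files.

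The samples were granulosa cells of Simmental heifers whose estrous cycles had been synchronized with a prostaglandin analogue and a GnRH analogue, which all groups share. The follicles were classed as SF or DF by their diameter, and the cells were collected on cycle day 3 in some heifers and on cycle day 7 in others. The diameter limits of both classes were larger at day 7 than at day 3, so a class does not mean the same size on both days. The paper lists 3 DF follicles at day 7, fewer than the follicles of any other group. It does not say how many follicles entered each library. With 3 libraries of DF at day 7, each of these held a single follicle if no follicle was shared between libraries. Small RNA was sequenced in 12 libraries, 3 biological replicates for each of the 4 groups (SF at day 3, DF at day 3, SF at day 7 and DF at day 7). Follicular fluid was pooled by follicle size and the granulosa cells were sedimented from it, with no sorting step described, and the labels do not tie the replicates to single animals, so the p values measure the spread between these libraries.

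A miRNA binds to messenger RNAs through the bases at its 5′ end, called the seed, and lowers their translation or stability. miR-23a and miR-23b share a seed, as do miR-27a and miR-27b, and the paralogs of each pair differ only near the 3′ end. The mature miR-24-3p of both clusters is the same molecule. The miR-23 family is known for the repression of mitochondrial glutaminase, the miR-27 family for the repression of the adipogenic regulator PPARG, and miR-24 for the repression of cell cycle genes. In the RefSeq table of the assembly ARS-UCD2.0, MIR23A, MIR27A and MIR24-2 follow each other inside the locus LOC132345691. There, MIR23B, MIR27B and MIR24-1 follow each other inside the gene AOPEP. The sequences of the mature miRNAs were not used here.

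With 1 entry for each mature name, the libraries held between 160418 and 405129 reads on known miRNAs. In these libraries 3 reads are 0.000741% to 0.00187% of the total, a limit for counting error alone. Levels are given as normalized counts, which are raw reads divided by the median-of-ratios size factor of the library. The differentially expressed miRNAs are those with a log2 fold change of 1 or more in size, p no higher than 0.05 and a false discovery rate up to 10% over all miRNAs tested, from the quasi-likelihood test of edgeR. Reads that end before the position at which a pair of paralogs differ cannot be assigned to one of them, and how many such reads were counted for miR-23a, miR-23b-3p, miR-27a-3p and miR-27b is not shown by the counts.

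The 6 members together held 5.91 ± 0.65% (SD, n = 3) of the library reads in SF of day 3 and 5.16 ± 0.54% in DF of day 3. At day 7 the share was 4.37 ± 0.29% in SF and 9.38 ± 1.41% in DF. The share in DF at day 7 lay above that of every other library, between 7.91% and 10.7%. Most of these reads were those of bta-miR-27b, which ranked between 3 and 8 among all miRNAs of a library by reads. Within the reads of the 6 members, bta-miR-27b made up 92.0 ± 0.1% and 92.3 ± 1.3% in SF and DF at day 3, 89.4 ± 1.9% in SF at day 7 and 77.6 ± 4.6% in DF at day 7. The other members were therefore a larger part of the clusters' output in DF at day 7 than in any other group.

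**Figure D1:**
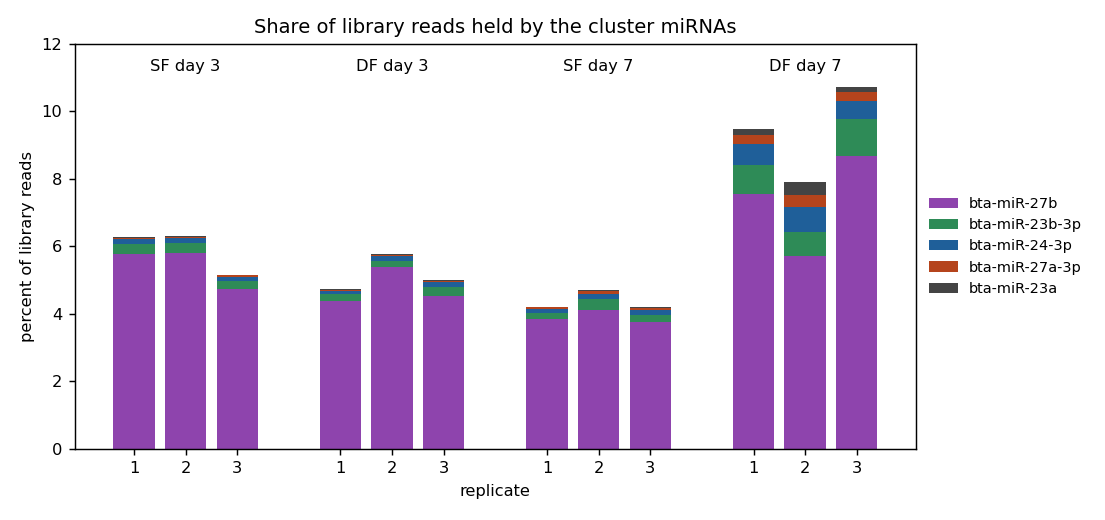
Stacked bars give the percent of all reads of each library that bta-miR-27b, bta-miR-23b-3p, bta-miR-24-3p, bta-miR-27a-3p and bta-miR-23a held, for replicates 1 to 3 of the 4 groups. The 3 libraries of DF at day 7 reach between 7.91% and 10.7% in all, and bta-miR-24, with at most 5 reads in a library, is too small to draw.

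The gene whose level moved most was bta-miR-23a. Its normalized counts in replicates 1, 2 and 3 were 52.1, 33.1 and 43.8 in SF and 23.9, 36.4 and 40.1 in DF at day 3. At day 7 they were 52.1, 103.7 and 72.9 in SF and 535, 1068 and 483 in DF. All DF libraries of day 7 lay above all other libraries, by a factor of 9.12 between the means of DF and SF at that day. The neighbouring groups in the order of the means, which was DF at day 7, SF at day 7, SF at day 3 and DF at day 3, overlapped apart from the first step. By reads, bta-miR-23a ranked between 44 and 65 in DF at day 7 and between 111 and 145 in the other groups.

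A like order was seen for bta-miR-27a-3p, the partner of bta-miR-23a in the same cluster. Its normalized counts were 112, 121 and 118 in SF and 77.1, 84.0 and 77.2 in DF at day 3. At day 7 they were 105, 183 and 146 in SF and 730.5, 945 and 783 in DF. The lowest DF library of day 7 was above the highest library of any other group, and the DF libraries of day 3 were below all SF libraries of both days. The replicates of bta-miR-27a-3p were close at day 3, with a coefficient of variation of 3.88% in SF and 5.01% in DF, against 26.8% in SF and 13.7% in DF at day 7.

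The shared product bta-miR-24-3p was listed at both of its precursors with counts that differed by at most 4 reads in a library, so the reads of the 2 loci were not told apart. Its normalized counts were 406, 407 and 348 in SF and 298, 374 and 331 in DF at day 3. Those of day 7 were 360, 497 and 467 in SF and 1661, 2042 and 1639 in DF. The libraries of the other 3 groups overlapped each other in a narrow band, and those of DF at day 7 stood above it.

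Of the other cluster, bta-miR-23b-3p had normalized counts of 759, 809 and 626 in SF and 530.1, 473 and 622 in DF at day 3. They were 511, 949 and 734 in the SF libraries and 2319, 1927 and 3289 in the DF libraries of day 7. The means of SF were nearly equal on the 2 days, with 731.3 ± 94.4 at day 3 and 731.4 ± 219 at day 7 (SD, n = 3). At day 3 all SF libraries were above all DF libraries, and at day 7 all were below.

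For the most abundant member, bta-miR-27b, the DF libraries of day 7 were less far, by fold, from the other groups than for the other abundant members. Its normalized counts were 15480.1, 15971 and 12856 in SF and 11778, 13662 and 10624 in DF at day 3. At day 7 they were 10608, 12093 and 12089 in SF and 20398, 15666 and 26120 in DF. The lowest DF library of day 7 was below the highest SF library of day 3, so that no group stood apart from all the others, although DF at day 7 was above SF at day 7 and DF at day 3.

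The remaining member, bta-miR-24, is a second mature name listed at the precursor bta-mir-24-1 beside bta-miR-24-3p, and it was near the limit of the depth. It had 1, 1 and 1 reads in SF and 2, 1 and 0 reads in DF at day 3. At day 7 it had 1, 5 and 0 reads in SF and 5, 2 and 2 reads in DF. The other products listed at these precursors were as rare, with at most 3 reads of bta-miR-27a-5p and at most 1 read of bta-miR-23b-5p in a library. In the comparisons where bta-miR-24 and bta-miR-27a-5p had enough libraries with reads to be tested, neither passed the thresholds, and bta-miR-23b-5p was not tested. Where a second product of a precursor was listed, nearly all reads were thus those of 1 product. None of the second products looked for at bta-mir-23a, bta-mir-27b and bta-mir-24-2 was listed, so their reads could not be counted.

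**Figure D2:**
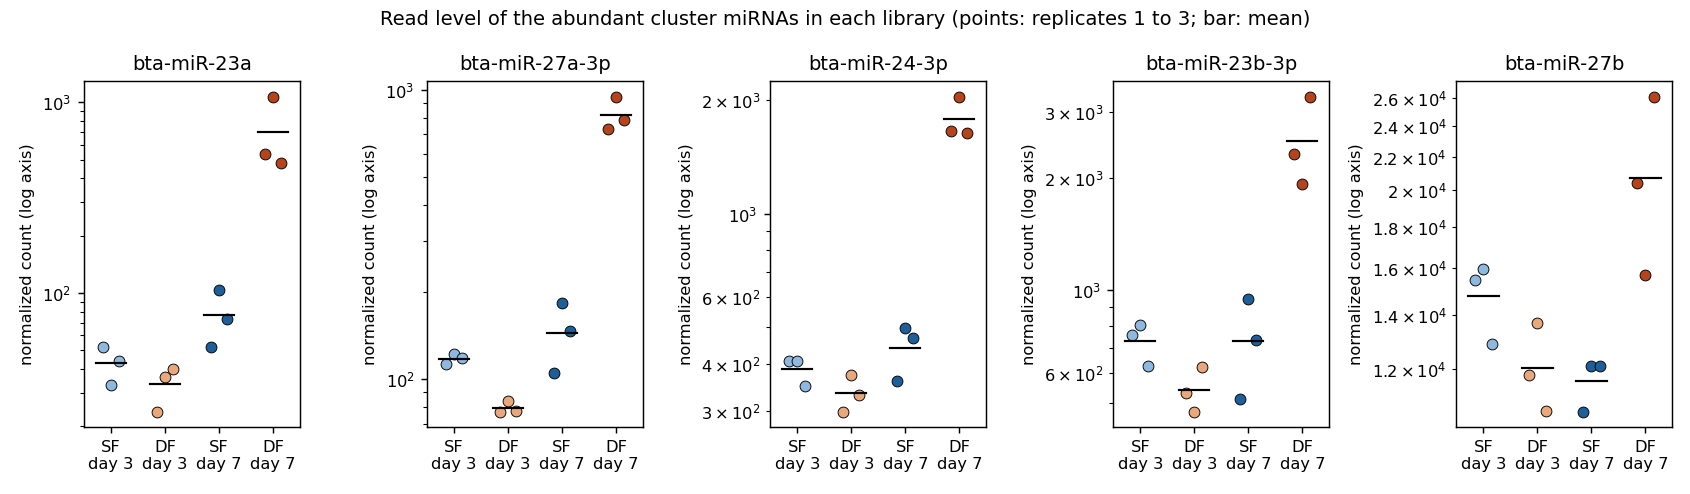
Points give the normalized count of each library on a log axis, with its own scale in each panel, for replicates 1 to 3 of the 4 groups, and the bar is the mean of the group. For bta-miR-23a the DF libraries of day 7 lie between 483 and 1068 and those of the other groups between 23.9 and 103.7, while for bta-miR-27b the DF libraries of day 7 overlap those of SF at day 3.

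Between SF and DF at day 3, which addresses the selection of follicles, none of the 6 members was differentially expressed, beside 5.67% of the 335 miRNAs tested. At an unadjusted p of at most 0.05 there were 3 members, where 24.8% of all passed that limit, and the DESeq2 Wald test also called 0 members. The log2 fold changes of SF against DF were all positive. The largest among the abundant members was that of bta-miR-27a-3p, at 0.51 (standard error 0.19, adjusted p = 0.0799, edgeR), within the false discovery rate, as were 16.7% of all, and under the fold threshold. For bta-miR-23b-3p a value of 0.38 was found (standard error 0.16, adjusted p = 0.111, edgeR). That of bta-miR-23a was 0.34 with a standard error of 0.26 (adjusted p = 0.481, edgeR). For bta-miR-27b and bta-miR-24-3p the log2 fold changes were 0.25 and 0.17. All SF libraries were above all DF libraries for bta-miR-23b-3p and bta-miR-27a-3p, as for 14.9% of the miRNAs tested. The median log2 fold change of the members was 0.36, and that of all miRNAs tested was -0.04.

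Between SF and DF at day 7, which addresses dominance, 4 of the 6 members were differentially expressed, all lower in SF, where 33.4% of the 350 miRNAs tested were called, 18.3% with lower counts in SF. With SF set against DF, bta-miR-23a had a log2 fold change of -3.12, with a standard error of 0.41 (adjusted p = 0.000408, edgeR). The value of bta-miR-27a-3p was -2.43, with a standard error of 0.28 (adjusted p = 0.000203, edgeR). These are 8.71 fold and 5.39 fold differences in level. The level of bta-miR-24-3p differed by -1.94 (standard error 0.23, adjusted p = 0.000259, edgeR). That of bta-miR-23b-3p differed by -1.70 (standard error 0.29, adjusted p = 0.00144, edgeR). The difference of bta-miR-27b, -0.76 (standard error 0.21, adjusted p = 0.0188, edgeR), passed the false discovery rate, as did 39.7% of all, and not the fold threshold. For each of these 5 all SF libraries were below all DF libraries, which held for 23.1% of the miRNAs tested. The low count of bta-miR-24 gave a log2 fold change of -0.58 with a standard error of 0.99. Over the members the median was -1.82, against -0.05 over all miRNAs tested. In the order of log2 fold changes from the highest to the lowest, bta-miR-23a was 328 of 350, bta-miR-27a-3p 305, bta-miR-24-3p 289, bta-miR-23b-3p 280 and bta-miR-27b 225. In bulk granulosa cells, a change in the number of cells of a type and a change in the miRNA content of each cell cannot be told apart.

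When DF of day 7 were compared with DF of day 3, 4 of the 6 members were differentially expressed and rose by day 7. In this comparison 40.3% of the 360 miRNAs tested were called, 24.4% with higher counts at day 7. From day 3 to day 7 bta-miR-23a had a log2 fold change of 4.37, with a standard error of 0.36 (adjusted p = 3.39e-07, edgeR), a 20.6 fold rise that ranked 23 of 360 among all log2 fold changes. For bta-miR-27a-3p it was 3.35 (standard error 0.23, adjusted p = 3.68e-08, edgeR), a 10.2 fold rise. The values of bta-miR-24-3p and bta-miR-23b-3p were 2.40 and 2.19, with standard errors of 0.21 and 0.23 (adjusted p = 5.84e-07 and 3.56e-06, edgeR). For bta-miR-27b the value was 0.76 (standard error 0.20, adjusted p = 0.0081, edgeR), within the false discovery rate, as were 47.2% of all, and under the fold threshold. In normalized counts all libraries of day 7 were above all of day 3 for the 6 members, as for 25% of the miRNAs tested, although for bta-miR-24 this rests on few reads, and the median of the members was 2.30 against 0.05 over all. The DF libraries of day 7 enter this comparison and that of SF and DF at day 7, so the 2 sets of values are not independent.

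In SF between day 7 and day 3 none of the members was differentially expressed, beside 0.593% of the 337 miRNAs tested, and the DESeq2 Wald test called 0 of them as well. At an unadjusted p of at most 0.05 there were 2 members, beside 11% of all, with log2 fold changes of day 7 against day 3 of 0.84 for bta-miR-23a and -0.33 for bta-miR-27b. Their standard errors were 0.32 and 0.15 (adjusted p = 0.309 and 0.427, edgeR). All day 3 libraries of bta-miR-27b were above those of day 7, as for 7.12% of the miRNAs tested. Without SF replicate 1 of day 7, bta-miR-23a passed the thresholds at 1.03 (adjusted p = 0.0362, edgeR), and without SF replicate 2 of that day its value was 0.51 (adjusted p = 0.714, edgeR). The values of bta-miR-27a-3p, bta-miR-24-3p and bta-miR-23b-3p were 0.32, 0.20 and 0.02, with standard errors of 0.25, 0.19 and 0.22.

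**Figure D3:**
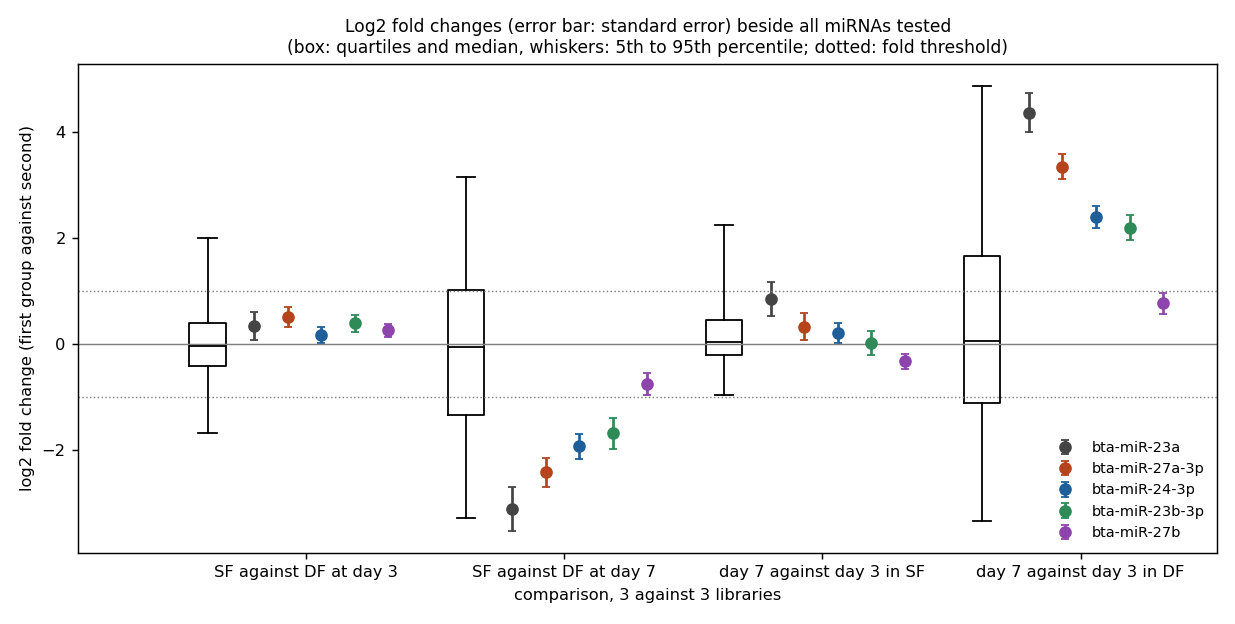
Points give the log2 fold change of 5 members in the 4 comparisons of 3 against 3 libraries, with the standard error, beside a box of all miRNAs tested (median, quartiles, and whiskers from the 5th to the 95th percentile). At day 7 against day 3 in DF the points run from 4.37 for bta-miR-23a to 0.76 for bta-miR-27b, and the dotted lines mark the fold threshold of 1.

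Whether the difference between SF and DF itself changed from day 3 to day 7 was tested as an interaction over all 12 libraries, where 26.5% of 378 miRNAs passed the same thresholds. Of the 6 members 5 passed, all with a negative term, a lower level of SF relative to DF at day 7 than at day 3. Of the miRNAs tested, 14.3% passed the thresholds with a negative term. The term is a difference of differences and does not by itself mean a fall in SF. The log2 fold change moved by -3.56 for bta-miR-23a, -3.06 for bta-miR-27a-3p and -2.22 for bta-miR-24-3p, with standard errors of 0.49, 0.31 and 0.26 (adjusted p = 2.79e-05, 1.58e-06 and 6.65e-06, edgeR). For bta-miR-23b-3p and bta-miR-27b it moved by -2.21 and -1.13, with standard errors of 0.34 and 0.25 (adjusted p = 9.68e-05 and 0.00251, edgeR). The value of bta-miR-27b was -0.94 without DF replicate 3 of day 7 and then missed the fold threshold.

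The paralogs of the clusters were then compared within each library, where no scaling of the libraries enters. The number of bta-miR-23a reads for each bta-miR-23b-3p read was 0.0687, 0.0410 and 0.0700 in SF and 0.0451, 0.0768 and 0.0644 in DF at day 3. At day 7 it was 0.102, 0.109 and 0.0993 in SF and 0.231, 0.554 and 0.147 in DF. All libraries of day 7 were above all libraries of day 3, and at day 7 all DF libraries were above all SF libraries. At day 3 the SF and DF libraries overlapped.

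The log2 ratio of miR-23a to miR-23b-3p was higher at day 7 than at day 3 by 2.13 in DF and by 0.83 in SF, and the difference of SF minus DF was -1.36 at day 7 and -0.06 at day 3. With 3 against 3 libraries, a two-sided exact permutation test cannot give a p under 0.10, and it gave 0.10 for the first 3 of these and 0.70 for the last. With day permuted within each follicle class, the mean rise was 1.48 and the exact permutation test gave p = 0.005, the smallest it can give (adjusted p = 0.03 over the 12 ratio tests). With follicle class permuted within each day the exact permutation test gave p = 0.085 (adjusted p = 0.109). One library had a large part in the size of the ratio in DF at day 7. Without DF replicate 2 of that day, the difference between SF and DF fell from -1.36 to -0.83 and the rise in DF from 2.13 to 1.60, with no change of direction.

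The reads of bta-miR-27a-3p for each read of bta-miR-27b were far fewer, at 0.00726, 0.00761 and 0.00916 in SF and 0.00654, 0.00615 and 0.00726 in DF at day 3. They were 0.00991, 0.0151 and 0.0121 in SF and 0.0358, 0.0603 and 0.030 in DF at day 7. The order of the groups was the same as for the miR-23 pair at day 7, and DF replicate 2 was again the highest library.

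On the log2 scale the ratio of miR-27a-3p to miR-27b rose from day 3 to day 7 by 2.60 in DF and by 0.61 in SF. The difference of SF minus DF was 0.26 at day 3 and -1.72 at day 7, and the libraries did not overlap in any of the 4 comparisons, although the lowest SF and the highest DF library of day 3 were both at 0.00726. Each gave p = 0.10 in the exact permutation test, the smallest it can give. With day permuted within follicle class the mean rise was 1.60 (exact permutation test, p = 0.005, adjusted p = 0.03). With follicle class permuted within day the exact permutation test gave p = 0.10 (adjusted p = 0.109), where the differences of the 2 days have opposite signs. For both pairs, comparing libraries of the same replicate number by an exact sign-flip test gave p = 0.031 for the rise within follicle class, the smallest that 6 pairs allow (adjusted p = 0.19). This test could not have given an adjusted p of 0.05 or less, and the days came from different heifers. In the exact permutation test the adjusted p was 0.06 for both pairs without SF replicate 1, 2 or 3 of day 3, DF replicate 1 of day 3 or SF replicate 2 of day 7.

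The paralog ratios above and their tests were chosen with earlier results of these data known, which their p values do not take into account. The ratios also moved between members of one cluster, and these are given as a description with no test. They were chosen after the levels had been seen. For each read of bta-miR-27b, the libraries held 0.0490, 0.0507 and 0.0487 reads of its neighbour bta-miR-23b-3p in SF and 0.0450, 0.0346 and 0.0586 in DF at day 3. At day 7 the values were 0.0481, 0.0785 and 0.0608 in SF and 0.114, 0.123 and 0.126 in DF, so that DF at day 7 was above all other libraries with little spread. The ratio of bta-miR-23a to bta-miR-27a-3p had a mean of 0.37 ± 0.10 in SF and 0.42 ± 0.11 in DF at day 3 (SD, n = 3). Its mean at day 7 was 0.52 ± 0.04 in SF and 0.83 ± 0.27 in DF. The ratio of bta-miR-24-3p to bta-miR-23b-3p was between 0.498 and 1.06 in DF at day 7, a range that held those of all other groups.

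**Figure D4:**
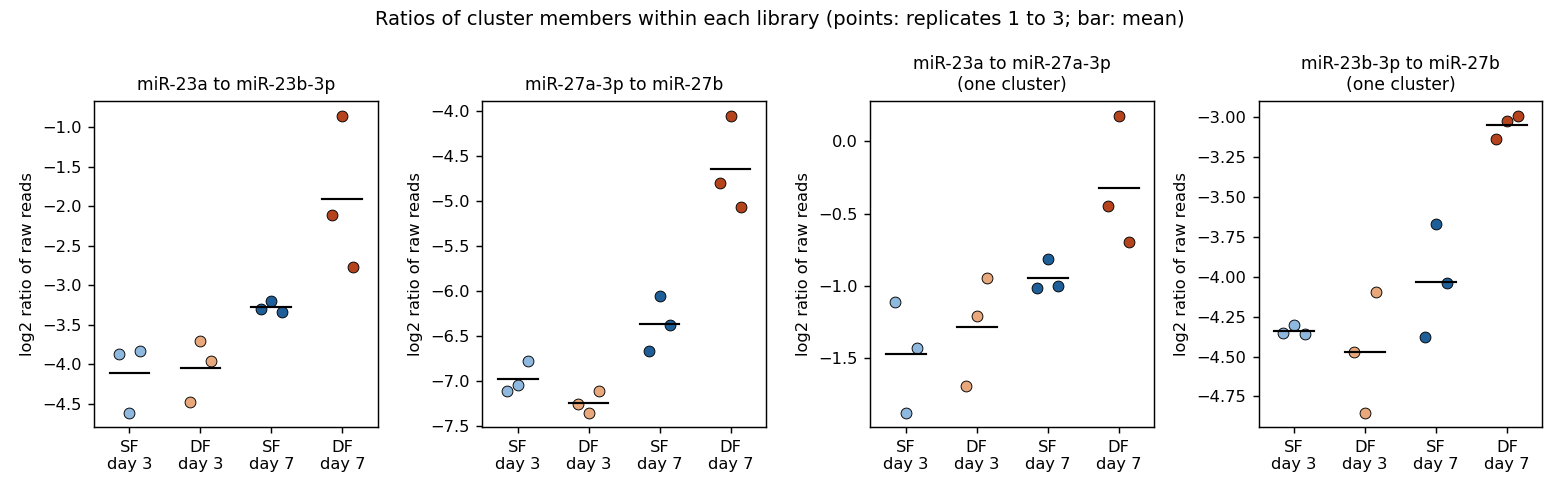
Points give the log2 ratio of raw reads of 2 members in each library, with its own scale in each panel, for replicates 1 to 3 of the 4 groups, and the bar is the mean of the group. In the left pair of panels, which compare the clusters, DF replicate 2 of day 7 is the highest library, and in the right-hand panel the 3 DF libraries of day 7 lie together above all others.

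Markers of other cell types also differed between these groups. The leukocyte list (bta-miR-142-5p, bta-miR-142-3p, bta-miR-150 and bta-miR-223) had a summed normalized count between 110 and 226 in SF and between 118 and 166 in DF at day 3. The sum at day 7 was 189, 723 and 214 in SF and 3189, 8856 and 803 in DF. All 4 were differentially expressed and higher at day 7 than at day 3 in DF, as were 24.4% of the miRNAs tested. At day 7 all 4 were lower in SF than in DF, with log2 fold changes from -3.74 to -1.24. Of these, 3 were differentially expressed, where 18.3% of the miRNAs tested were called lower in SF. No library of day 3 held a read of bta-miR-142-3p. The list of theca, stroma and smooth muscle was bta-miR-143, bta-miR-145, bta-miR-214, bta-miR-199a-3p, bta-miR-199a-5p and bta-miR-199b. In DF, 6 of 6 were differentially expressed and higher at day 7 than at day 3, beside the same 24.4%. At day 7 all 6 were lower in SF than in DF, with log2 fold changes from -2.68 to -0.88. Of these, 5 were differentially expressed, beside the same 18.3%. The summed count of this list was between 2520 and 5539 in the other groups and 12319, 8799 and 17069 in DF at day 7.

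The erythrocyte list (bta-miR-451, bta-miR-144 and bta-miR-486) had summed counts between 323 and 1684 in the other groups and between 829 and 2381 in DF at day 7. At day 7, 2 of the 2 tested were differentially expressed and lower in SF than in DF, beside 18.3% of all miRNAs tested. Between day 7 and day 3 in DF, 0 of the 3 tested were differentially expressed, with log2 fold changes from -1.26 to 0.84. The endothelial list, both arms of bta-miR-126, was between 63.1 and 226 in the other groups and between 133 and 164 in DF at day 7. Of its 2 members, bta-miR-126-3p was differentially expressed and higher at day 7 than at day 3 in DF, by 1.05 on the log2 scale, with a standard error of 0.29 (adjusted p = 0.01, edgeR). Neither was called between SF and DF at day 7. The gonad miRNA bta-miR-202 was lower in DF at day 7, with 772, 374 and 1000.3 normalized counts against 2269 to 3766 in the other libraries. No marker messenger RNA of granulosa cells is measured by these libraries.

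Among the DF libraries of day 7, replicate 2 had the highest leukocyte and erythrocyte sums, the lowest theca, stroma and smooth muscle sum and the lowest bta-miR-202. It also had the highest normalized counts of bta-miR-23a, bta-miR-27a-3p and bta-miR-24-3p and the lowest of bta-miR-23b-3p and bta-miR-27b. This replicate had the fewest reads of all libraries, 160418, beside 308121 and 326345 in replicates 1 and 3. In raw reads, bta-miR-23a had 610, 626 and 523 and bta-miR-27a-3p had 833, 554 and 848 in replicates 1, 2 and 3. The order of the normalized counts therefore rests on scaling by depth. As percent of library reads, bta-miR-23a held 0.198, 0.390 and 0.160 and bta-miR-27a-3p held 0.270, 0.345 and 0.260. Replicate 2 was highest for both. Replicate 3 had the lowest leukocyte sum and the highest counts of bta-miR-23b-3p and bta-miR-27b. The part of these cell types in the differences of the members was not tested. Without DF replicate 2 of day 7 the log2 fold change between SF and DF at that day was -2.65 for bta-miR-23a, -2.30 for bta-miR-27a-3p, -1.82 for bta-miR-24-3p, -1.85 for bta-miR-23b-3p and -0.92 for bta-miR-27b. The same 4 members were called.

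**Figure D5:**
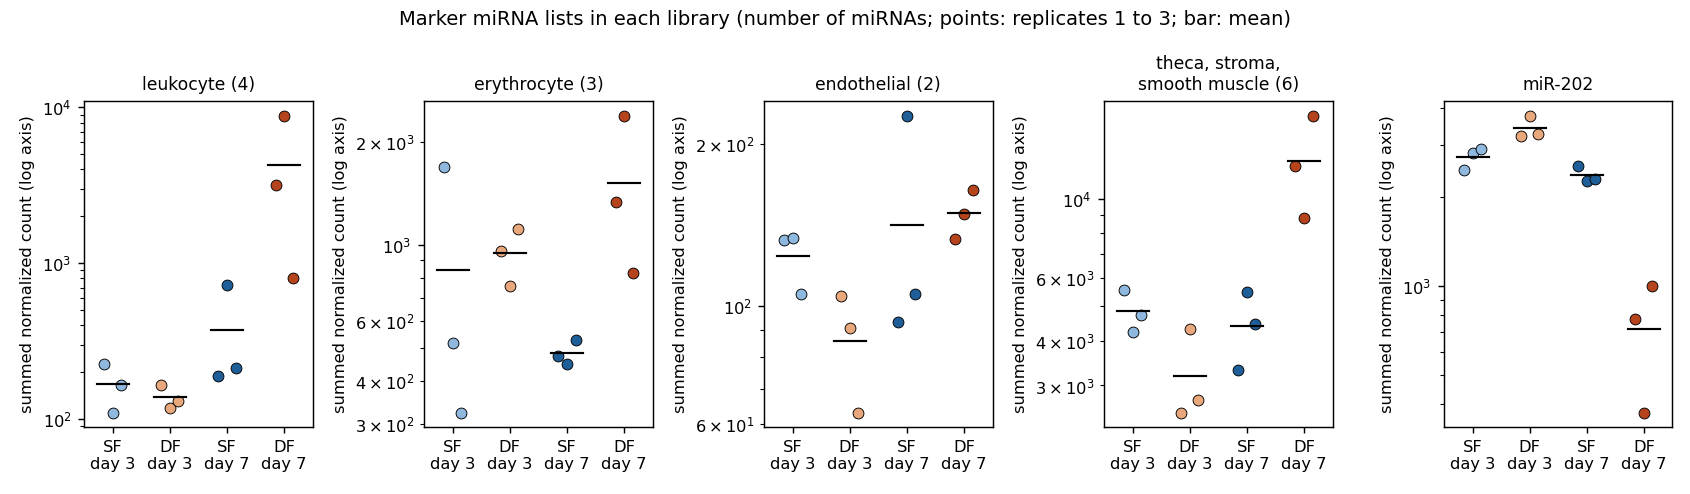
Points give the summed normalized count of each marker list in each library on a log axis, with its own scale in each panel, for replicates 1 to 3 of the 4 groups, and the bar is the mean. The leukocyte sum of the DF libraries of day 7 spreads from 803 to 8856, above the 110 to 723 of the other groups, and bta-miR-202 is lowest in these libraries.

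The likeness of profiles was measured as the root mean square difference, over the 12 libraries, of log2(normalized count + 1) centred on the mean of each miRNA, so that 0 means the same profile. Among the members, bta-miR-23b-3p and bta-miR-24-3p were closest, at 0.31, followed by bta-miR-27a-3p and bta-miR-24-3p, at 0.35, and the farthest were bta-miR-23a and bta-miR-27b, at 1.504. The cluster partners bta-miR-23a and bta-miR-27a-3p differed by 0.51 and bta-miR-23b-3p and bta-miR-27b by 0.60. The paralogs bta-miR-23a and bta-miR-23b-3p differed by 0.98 and bta-miR-27a-3p and bta-miR-27b by 1.04. Profiles were thus nearer within a cluster than between paralogs, but bta-miR-23b-3p and bta-miR-27a-3p, which lie in different clusters, were also at 0.52.

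Of 128 other miRNAs with a mean of at least 50 normalized counts, the 3 nearest to bta-miR-27a-3p were bta-miR-181a, at 0.15, and bta-miR-199c and bta-miR-199a-3p, both at 0.19, whose mean normalized counts are both 462. With such nearly equal counts, bta-miR-199c and bta-miR-199a-3p may hold the same reads and need not be separate profiles. The nearest to bta-miR-23a were bta-miR-193b, at 0.33, bta-miR-130b, at 0.47, and bta-miR-181a, at 0.54, where the median over the 128 was 1.85. For bta-miR-24-3p they were bta-miR-181b, at 0.25, bta-miR-29a, at 0.30, and bta-miR-28, at 0.31. For bta-miR-23b-3p they were bta-miR-29a, at 0.24, bta-miR-107, at 0.30, and bta-miR-28, at 0.34. The profile of bta-miR-27b was nearest to those of bta-miR-103, at 0.23, bta-miR-1468, at 0.24, and bta-miR-30f, at 0.27. The libraries share their size factors, so these distances are a description.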

How the data were processed

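Small RNA of granulosa cells was sequenced by the authors on an Illumina HiSeq 2000 after TruSeq library preparation. Per the labels, CASAVA 1.8.0, FastQC and cutadapt were used, and the authors removed reads under 18 bases, aligned the rest to the bovine genome UMD 3.1 and counted them on the bovine miRNAs of miRBase 20 with miRDeep2. The deposited values are raw read counts of each library, with 1 line per mature miRNA at each of its precursors (906 entries, 755 names), with no normalization. Where a name had several precursors, the line with the most reads summed over libraries was kept. Depth ranged from 160418 to 405129 reads, with a median of 297448.5, and replicates differed by more than counting noise (chi-square divided by its degrees of freedom, 11.3 to 152).

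Groups came from the labels. In R 4.3.3 with edgeR 4.0.16, each comparison used the raw counts of its 6 libraries, the miRNAs with at least 1 read in at least 2 replicates of a group, RLE factors, a prior count of 0.125, the quasi-likelihood F test and Benjamini-Hochberg adjustment. The standard error is the log2 fold change divided by the square root of F. The interaction used all 12 libraries. The procedure was run on simulated counts with the same dispersion for all miRNAs and libraries, as a check of the code. That setting lacks the uneven spread of these replicates, so it does not measure the error rate in these data. Ratios of raw reads were tested by exact permutation in Python 3.11.15, two-sided. All members, the other products of their precursors and, for each of the 5 abundant members, the 3 nearest profiles are named. Members, marker lists and tests were chosen with earlier results of these data known.

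Replicate numbers were checked as pairs. Deviations from the group means of same-numbered SF and DF libraries correlated by 0.13, 0.16 and 0.18 at day 7 over 186 miRNAs. Libraries of different numbers were not compared in this way, and no label ties the numbers to an animal. These low values therefore do not show that the numbers are pairs, and the main tests did not use them as pairs. At day 3 the values were -0.14, -0.09 and -0.03. The alternatives were DESeq2 1.42.0, TMM, library size alone, a filter of 10 reads in 3 samples or more, no filter, counts summed over precursors, a false discovery rate of 5% with no fold threshold, a replicate block, all 12 libraries in one fit and each library left out, and for the ratios counts plus 1 and medians.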

Additional observations from a re-analysis of the deposited data

Results flagged for a closer look

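For 5 members the difference between SF and DF was not the same on the 2 days, by the interaction test over all 12 libraries at the same thresholds (edgeR, Benjamini-Hochberg). The log2 fold change between SF and DF at day 7, minus that of day 3, was -3.56 for bta-miR-23a, -3.06 for bta-miR-27a-3p, -2.22 for bta-miR-24-3p, -2.21 for bta-miR-23b-3p and -1.13 for bta-miR-27b. For each, the fold change was positive at day 3 and negative at day 7, although at day 3 none passed the thresholds. Groups of 3 libraries are too small for a test of single libraries that stand apart.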

How the results depend on the processing

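Of the 13 calls of members, 12 were kept under every alternative that was run, and the exception is the interaction of bta-miR-27b without DF replicate 3 of day 7, at -0.94. With libraries left out, the number of members called was 4 at day 7, 4 to 5 in DF, 0 to 1 in SF, 0 at day 3 and 4 to 5 for the interaction. The call added in SF was that of bta-miR-23a without SF replicate 1 of day 7. Those added in DF were of bta-miR-24, without DF replicate 1 of day 3 (2.70, adjusted p = 0.0838, edgeR) or DF replicate 3 of day 7 (2.23, adjusted p = 0.0927, edgeR). With a false discovery rate of 5% and no fold threshold, bta-miR-27b was also called at day 7 and in DF. With at least 10 reads required, bta-miR-24 was not tested. The change of bta-miR-23b-3p in SF, 0.02, was -0.14 with library size alone, -0.018 with a replicate block, -0.00021 with all 12 libraries and -0.26 to 0.20 with libraries left out, and that of bta-miR-24 in SF was -1.09 to 1.30. The cause was not tested.

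A replicate block changed no call of a member. For the ratios, comparing libraries of the same replicate number left the rises within follicle class at 1.48 for miR-23a to miR-23b-3p and 1.60 for miR-27a-3p to miR-27b, with p = 0.031 by an exact sign-flip test, the smallest that 6 pairs allow (adjusted p = 0.19), so that this alternative could not reach an adjusted p of 0.05. With libraries left out these were 1.22 to 1.70 and 1.46 to 1.71, with adjusted p between 0.03 and 0.06 in the exact permutation test. Library size alone moved the median log2 fold change of all miRNAs by -0.15 at day 7, -0.14 in DF and -0.14 in SF. Over all miRNAs, the calls at day 3 went from 19 to 8 with all 12 libraries, 11 with DESeq2, 12 with at least 10 reads and 37 with no fold threshold, those in DF from 145 to 92 with at least 10 reads, and those in SF from 2 to between 0 and 20.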

Other observations

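In the RefSeq table of ARS-UCD2.0, the miRNA genes that come before MIR23A on the chromosome are MIR181C and MIR181D, which were looked at after their values had been seen. The normalized counts of bta-miR-181c were 32.0, 17.9 and 36.3 in SF and 21.6, 23.2 and 15.03 in DF at day 3, and at day 7 they were 30.2, 46.7 and 26.98 in SF and 128, 169 and 93.2 in DF. Its log2 fold change in DF was 2.66 (standard error 0.31, adjusted p = 1.12e-05, edgeR), and that of bta-miR-181d was 2.43 (standard error 0.52, adjusted p = 0.00162, edgeR), with all DF libraries of day 7 above all other libraries for both. In DF, 25% of the miRNAs tested had all libraries of day 7 above all of day 3. The value of bta-miR-181d rests on 2 to 5 reads in DF at day 3 and 9 to 18 at day 7. The interaction was -2.42 for bta-miR-181c and -2.48 for bta-miR-181d. It was -3.19 and -2.92 for bta-miR-181a and bta-miR-181b, which are not among these neighbours. A link between these loci was not tested. Next to MIR23B lies MIR2475, and bta-miR-2475 had at most 1 read in a library.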
